A study of Mus musculus with 6 samples.

Results

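Amino acids cross the plasma membrane of mammalian cells on carriers of several solute carrier (SLC) families. Transcripts of these carriers were measured by RNA-seq in mouse cardiac fibroblasts treated with vehicle or with transforming growth factor β (TGFβ), the cytokine that turns fibroblasts into matrix-secreting myofibroblasts. The members were all genes in the deposited table whose symbols matched a pattern for the SLC1, SLC3, SLC6, SLC7, SLC36, SLC38 and SLC43 families. They were matched by name and by no measured value, but the choice was made with earlier results of these data known. The pattern gave 51 of 25140 genes. It requires that a symbol end in a number, so Slc6a20b of the SLC6 family was not among them. Counts for 34 of the 51 passed the filter on low counts and could be tested, and 17 did not.

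The cells were primary cardiac fibroblasts from adult hearts of C57BL/6 mice at passage 1, with no further allele named in the labels, grown with 10% serum and 25 mM glucose. Both groups were then kept in 1% serum for 16 h before TGFβ at 10 ng/mL or no TGFβ for 24 h, with 3 libraries a group, called here vehicle A to C and TGFβ A to C. The letters follow the order of the count columns, and no label or column name pairs the libraries. The fibroblast medium contained added non-essential amino acids, according to the study's methods.

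Depth was similar throughout, with 27851677 to 31072338 counts per library. The TGFβ response list (Ctgf, Postn, Acta2 and others) had 6 of 8 genes higher, where 20.5% of all genes tested rose. Col1a1 (log2 fold change 0.23, edgeR adjusted p = 0.055) and Smad7 (0.02, edgeR adjusted p = 0.881) did not pass. The summed level of the list, most of it Col1a1, was 28326 to 30386 CPM (counts relative to the scaled total of the library) with vehicle. With TGFβ it was 43492 to 45863 CPM. All 10 fibroblast markers were detected, including Tcf21 and Pdgfra, and 8 of the 10 were lower with TGFβ, where 20.1% of all genes tested fell. Of the markers of other cells that the culture could hold, none of 10 endothelial genes, 1 of 9 leukocyte genes tested (Cd14, lower) and none of 3 cardiomyocyte genes tested passed the test. Their summed levels overlapped between the groups, at 496 to 774 CPM with vehicle and 449 to 630 CPM with TGFβ for the endothelial list, and at 261 to 374 CPM and 225 to 335 CPM for the leukocyte list. The cardiomyocyte list summed to 38.8 to 60.3 CPM and 27.7 to 40.8 CPM, most of it Tnnt2, with Myh6, Myl2 and Actc1 below the filter. Mesothelial genes summed to 25.2 to 91.9 CPM with vehicle, highest in vehicle A, and to 16.8 to 48.8 CPM with TGFβ. Pericyte genes summed to 114 to 179.9 CPM and 143 to 226 CPM, with 1 of 5 (Cspg4) higher, glial genes to 34.3 to 43.8 CPM and 31.3 to 35.1 CPM, with 1 of 6 tested (Cnp) lower, and epithelial genes to 0.303 to 1.07 CPM and 0.573 to 2.27 CPM. Several of these lists followed the letters in both groups. Mesothelial genes ran from A over C to B, and endothelial and leukocyte genes were highest in C. Within each letter, the endothelial, leukocyte, cardiomyocyte, mesothelial and glial sums were lower with TGFβ, and the pericyte and epithelial sums were higher. The endothelial list read 496 CPM with vehicle and 449 with TGFβ in A, 565 and 502 in B, and 774 and 630 in C. What these differences contribute to the values of the carriers was not tested. Over the 14334 genes tested, deviations from the group mean correlated at 0.372 to 0.445 between libraries with the same letter and at -0.26 to -0.125 between the others, as a description across genes, which are not independent. A fit with the letter as a block, added after this was seen, is therefore given beside the carriers whose call it changed (Slc1a2, Slc1a3, Slc7a8 and Slc38a9). The counts of this fit for the pathway lists are given at the end. As in any bulk sample, fewer cells of a type and less RNA per cell cannot be told apart.

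As background, the carriers divide by what drives them and what they move. Obligate exchangers pair a light chain of the SLC7 family with the heavy chain CD98 (Slc3a2) or rBAT (Slc3a1) and swap 1 amino acid for another, so that they need a pool of substrate inside the cell. Sodium coupled carriers of the SLC6 and SLC38 families and the glutamate carriers of the SLC1 family build that pool. The SLC1 members Slc1a4 and Slc1a5 are themselves exchangers. The cationic carriers of the SLC7 family take up arginine, lysine and ornithine, and SLC43 carriers let large neutral amino acids through by facilitated diffusion. The symbol rule is wider than the plasma membrane and wider than amino acids. It also holds a nucleobase carrier (Slc43a3), a creatine carrier (Slc6a8), a taurine carrier (Slc6a6), the monoamine carriers Slc6a2, Slc6a3 and Slc6a4, and carriers placed in lysosomes or vesicles (Slc36a1, Slc38a7, Slc38a9, Slc6a17).

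TGFβ moved the carriers in both directions. At an adjusted p under 0.05 from edgeR's quasi-likelihood test over all genes, 21 of the 34 tested members changed (61.8%), against 40.7% of the 14334 genes tested. Of these, 13 rose (38.2%, against 20.5% of all genes) and 8 fell (23.5%, against 20.1%). The median log2 fold change of the 34 was 0.13 and the median of its size was 0.48, where over all genes tested these were -0.00129 and 0.208. In 25 of the 34 (73.5%) the 3 TGFβ libraries did not overlap the 3 vehicle libraries, which was so for 53.3% of all genes tested. A change of at least 1 on the log2 scale in addition was seen in 2 members, Slc7a3 and Slc43a2, and in 6.77% of all genes. Summed over all 51 members, the carriers took 0.316 to 0.329% of the counts with vehicle and 0.336 to 0.338% with TGFβ.

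**Figure D1:**
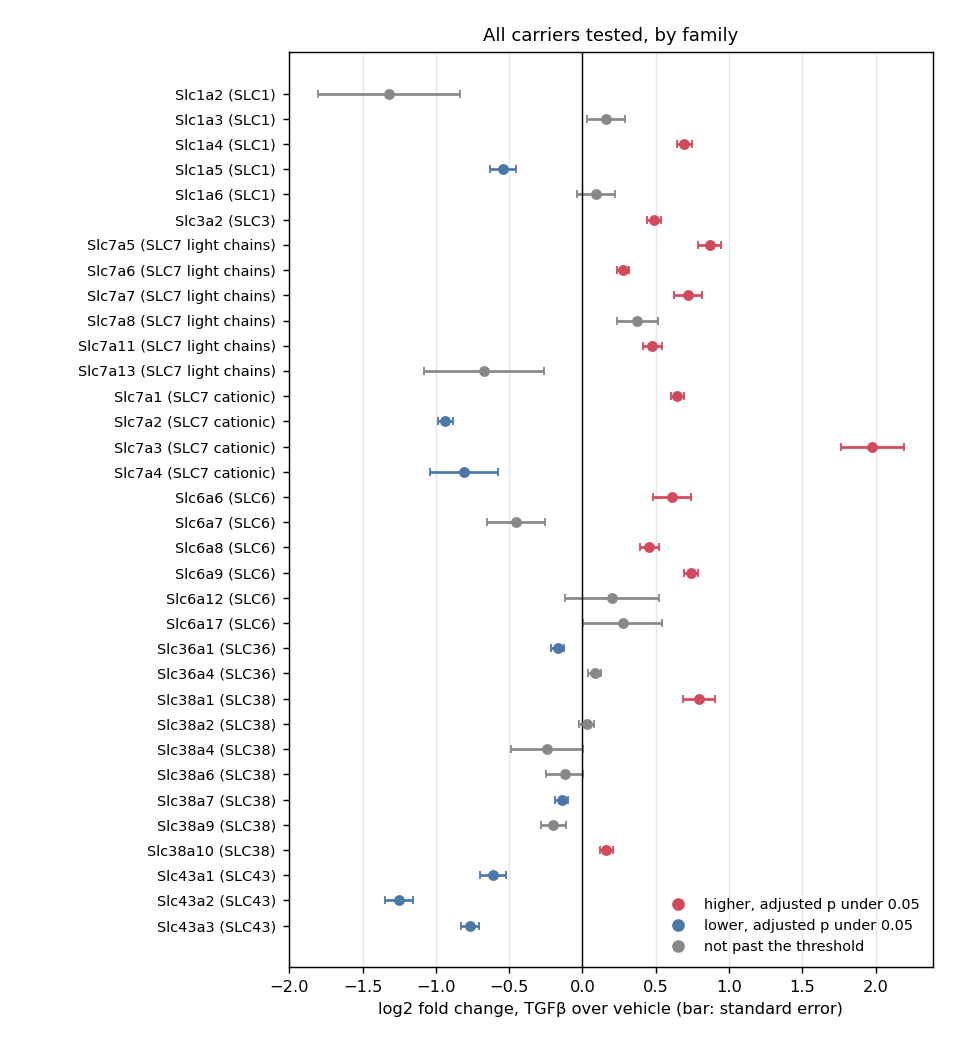
Log2 fold changes of the 34 tested carriers (x axis, TGFβ over vehicle, bars are standard errors from edgeR), grouped by family on the y axis. Red points rose, blue points fell and grey points did not pass an adjusted p of 0.05; Slc7a3 stands farthest to the right at 1.98, and all 3 SLC43 carriers lie to the left of 0.

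The promoters of the carriers were searched for 3 letter patterns on both strands, in windows from 250 bases before to 50 bases after each RefSeq start site (GRCm38.p6, the patch release of mm10). A promoter was found for 35 of the 51 members, among them 8 of the 13 that rose and 4 of the 8 that fell. The pattern TGATGNAA is the core of the amino acid response element, to which ATF4 binds together with C/EBP proteins. It lay in 3.97% of all 32851 promoters, or in 4.51% of the 27025 genes, and in 3 members. All 3 rose with TGFβ: the small neutral carrier Slc1a4, the cystine carrier Slc7a11 and the cationic and neutral exchanger Slc7a7. They are shown here because the amino acid response list is described further on, each from 150 bases before to 30 bases after the start site, 5′ to 3′ on the strand of the gene, with the matched letters in capitals (chr11:20332684-20332863, minus strand; chr3:50443584-50443763, minus strand; chr14:54417915-54418094, minus strand).
Slc1a4: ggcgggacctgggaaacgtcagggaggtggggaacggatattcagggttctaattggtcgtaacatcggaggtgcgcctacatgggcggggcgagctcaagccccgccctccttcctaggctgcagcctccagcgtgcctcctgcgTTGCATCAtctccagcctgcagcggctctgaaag
Slc7a11: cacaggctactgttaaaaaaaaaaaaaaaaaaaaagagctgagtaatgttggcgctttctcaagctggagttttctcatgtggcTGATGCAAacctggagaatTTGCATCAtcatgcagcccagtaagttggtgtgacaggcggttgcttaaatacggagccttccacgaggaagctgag
Slc7a7: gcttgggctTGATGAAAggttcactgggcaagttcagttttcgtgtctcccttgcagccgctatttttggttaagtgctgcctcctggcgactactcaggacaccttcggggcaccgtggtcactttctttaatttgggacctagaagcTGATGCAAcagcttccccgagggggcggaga
For a gene with several start sites, the window printed is that of the start site with the most matches to the patterns. Slc7a11 held the pattern on both strands, beginning 66 and 47 bases before the start. In Slc1a4 the match was on the opposite strand and began 4 bases before the start, so that it crossed into the transcript. Slc7a7 had matches 141 bases and 1 base before the start used, and the latter letters also lay 243 bases before a second start site of the gene. The printed Slc7a7 window lies wholly outside the span of the gene given further on.

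The E-box CACGTG, a palindrome read by basic helix-loop-helix factors such as MYC and the TFEB family, lay in 7.15% of all promoters, or 8.09% of genes, and in 8 of the 35 members. Among these 8, Slc1a6 did not pass the test, and Slc1a7, Slc38a5, Slc6a3 and Slc7a14 were below the filter. The calls of Slc36a1 (log2 fold change -0.17) and Slc38a7 (-0.14) depended on the libraries used, as given further on. None of the 8 risen members with a promoter held the letters. Of the 4 that fell, 3 did: the lysosomal carriers Slc36a1 and Slc38a7 and the large neutral carrier Slc43a1. These windows are shown because genes of lysosomal sensing are described further on, and are printed in the same way (chr11:55204190-55204369, plus strand; chr8:95853462-95853641, minus strand; chr2:84840173-84840352, plus strand).
Slc36a1: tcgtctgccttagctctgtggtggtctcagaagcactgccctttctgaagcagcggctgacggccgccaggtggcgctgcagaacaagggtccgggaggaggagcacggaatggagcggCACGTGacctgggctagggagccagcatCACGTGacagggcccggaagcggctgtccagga
Slc38a7: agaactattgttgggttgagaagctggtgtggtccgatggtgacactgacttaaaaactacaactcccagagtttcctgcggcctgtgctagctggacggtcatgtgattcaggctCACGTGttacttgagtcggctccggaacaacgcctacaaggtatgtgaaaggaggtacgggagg
Slc43a1: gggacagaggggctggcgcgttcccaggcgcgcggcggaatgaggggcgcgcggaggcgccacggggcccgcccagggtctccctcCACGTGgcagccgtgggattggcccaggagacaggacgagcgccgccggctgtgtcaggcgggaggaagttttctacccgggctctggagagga
Slc36a1 held the letters at 31 and 3 bases before the start site used, Slc38a7 at 34 and Slc43a1 at 64. The Slc43a1 window lies inside the span of the gene given further on, so its start site is not the first base of that span. The SMAD palindrome GTCTAGAC was in 0.213% of promoters and in none of the 35 members. None of the 6 printed promoters held more than 1 of the 3 patterns. A match is a description of letters, and binding was not measured here.

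The heavy chain CD98 and most of its light chains rose together. Slc3a2, which encodes CD98 and brings the light chains to the cell surface (chr19:8706882-8723369, minus strand), read 189, 181 and 171 CPM in vehicle A to C and 253, 255 and 251 CPM in TGFβ A to C. Every TGFβ library was above every vehicle library, with a log2 fold change of 0.49 ± 0.05 (SE, edgeR adjusted p = 0.000192). Its partner Slc7a5, the light chain LAT1 that imports leucine and other large neutral amino acids in exchange for glutamine (chr8:121881150-121907694, minus strand), stood at 224, 208 and 179.6 CPM in vehicle libraries and at 369, 385 and 362 CPM in TGFβ libraries. The groups were far apart, with vehicle C the lowest of all, and the change was a log2 fold change of 0.87 ± 0.08 (SE, edgeR adjusted p = 0.000138).

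Slc7a7, the light chain y+LAT1 that exchanges cationic for neutral amino acids (chr14:54369442-54417780, minus strand), was 11.8, 11.7 and 12.3 CPM in vehicle libraries and 18.5, 17.8 and 22.7 CPM in TGFβ libraries. The TGFβ libraries lay above the vehicle libraries and TGFβ C was highest, with a log2 fold change of 0.72 ± 0.10 (SE, edgeR adjusted p = 0.000907). This gene is also known from macrophages. In these libraries the leukocyte list summed highest in vehicle C and TGFβ C. As given above, the groups of that list overlapped, and within each letter its sum was lower with TGFβ. The part of that list in the result was not tested. In addition, 7.0% of the exon bases of Slc7a7 overlap Oxa1l on the opposite strand, a gene with 268% of its counts. Whether the counting used strand is not given in the sources used here.

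Slc7a11, the cystine and glutamate exchanger xCT (chr3:49892526-50443614, minus strand), rose from 24.5 ± 1.29 to 34.1 ± 2.11 CPM (SD, n = 3), a log2 fold change of 0.48 ± 0.06 (SE, edgeR adjusted p = 0.00087). Slc7a6, the light chain y+LAT2, rose less, from 70.2 ± 0.749 to 85 ± 3.53 CPM (SD, n = 3), a log2 fold change of 0.28 ± 0.04 (SE, edgeR adjusted p = 0.00158). Of the other light chains, Slc7a8 (LAT2) measured 3.27, 2.63 and 2.92 CPM in vehicle libraries and 3.4, 3.87 and 4.17 CPM in TGFβ libraries. The groups of Slc7a8 did not overlap, yet a log2 fold change of 0.38 ± 0.14 (SE, edgeR adjusted p = 0.0648) did not pass the threshold. With the letter as a block it did, at an edgeR adjusted p of 0.037. Slc7a13 had under 1 CPM in every library. Across the 6 SLC7 light chains, 4 rose, none fell and 2 did not pass the test. Of all genes tested, 20.5% rose and 20.1% fell. Slc7a13 is not counted among the light chains of CD98 in the sums below.

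Per kilobase of merged exons, Slc7a5 was the main light chain of CD98 in both groups. The summed level of Slc7a5, Slc7a6, Slc7a7, Slc7a8 and Slc7a11 was 76.2 ± 6.22 CPM per kb with vehicle and 128 ± 1.93 CPM per kb with TGFβ (SD, n = 3). Slc7a5 held 71.9 ± 2.17% of this sum with vehicle and 78.3 ± 1.29% with TGFβ. The share of Slc7a6 was 20.2 ± 1.53% and 14.5 ± 0.792%. These carrier groupings were chosen after the values were seen and are described without a test.

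The cationic carriers changed in opposite directions. Slc7a2, the carrier CAT2 (chr8:40862396-40922308, plus strand), read 267, 261 and 290.4 CPM in vehicle libraries and 139, 148 and 141 CPM in TGFβ libraries. All TGFβ libraries lay below all vehicle libraries, with a log2 fold change of -0.94 ± 0.05 (SE, edgeR adjusted p = 1.79e-05). Slc7a1, the widely expressed carrier CAT1 (chr5:148327410-148399904, minus strand), moved the other way, from 121, 117 and 122 CPM to 195, 187 and 183 CPM. Its replicates were tight and its groups far apart, with a log2 fold change of 0.65 ± 0.04 (SE, edgeR adjusted p = 3.17e-05).

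Slc7a3, the carrier CAT3 known mainly from the nervous system (chrX:101079210-101086020, minus strand), stood at 4.21, 2.19 and 3.25 CPM in vehicle libraries and at 13.3, 10.6 and 14.3 CPM in TGFβ libraries. This was the largest rise among the 34 tested members, a log2 fold change of 1.98 ± 0.22 (SE, edgeR adjusted p = 0.000345), although its level stayed low. Slc7a4, an orphan member of the same branch, had 1.55 ± 0.25 CPM in vehicle libraries against 0.886 ± 0.215 CPM after TGFβ (SD, n = 3). It fell, a log2 fold change of -0.81 ± 0.23 (SE, edgeR adjusted p = 0.0251), but the call was lost in DESeq2 (adjusted p = 0.0553) and without vehicle A (0.08), vehicle B (0.0727), TGFβ B (0.0835) or TGFβ C (0.0708). The exons of Slc7a4 overlap P2rx6 on the opposite strand over 13.3% of their bases. P2rx6 had 250 counts over all libraries, where Slc7a4 had 216.

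Per kilobase, the make-up of these carriers differed between the groups, and their sum was somewhat lower with TGFβ. Slc7a2 supplied 72.6 ± 1.04% of the summed level of Slc7a1, Slc7a2 and Slc7a3 with vehicle and 44.3 ± 1.72% with TGFβ (SD, n = 3). Slc7a1 went from 25.3 ± 0.757% to 46.2 ± 1.12% and Slc7a3 from 2.06 ± 0.628% to 9.53 ± 1.45%. The sum itself was 41.1 ± 1.96 CPM per kb with vehicle and 35.3 ± 0.284 CPM per kb with TGFβ. With the longest transcript as the length in place of merged exons, an alternative added after the data were seen, Slc7a2 held 65.8% and 36.9% and Slc7a1 31.9% and 53.6%.

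**Figure D2:**
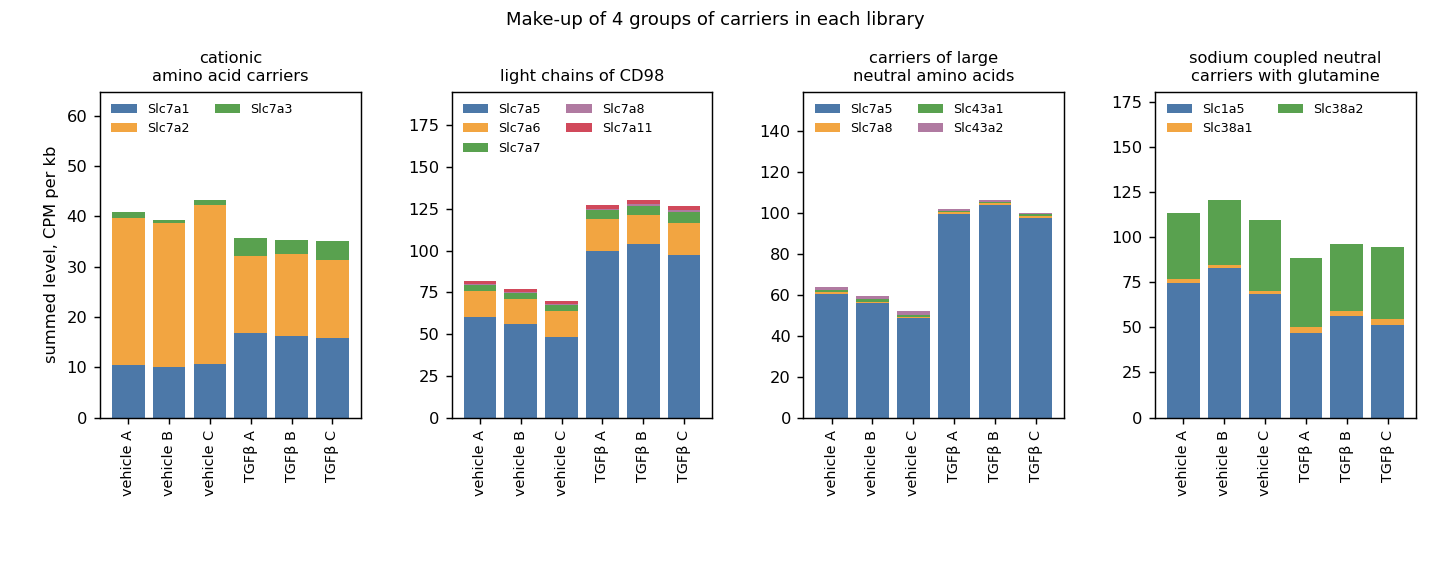
Stacked levels per kilobase of merged exons (y axis, CPM per kb) in each of the 6 libraries (x axis) for 4 groupings of carriers, 1 panel each, with 1 colour per gene. In the left panel the Slc7a2 segment shrinks from 72.6% to 44.3% of the column on average, and in the second panel the columns grow from 76.2 to 128 CPM per kb, most of it Slc7a5.

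Among sodium coupled carriers of neutral amino acids, ASCT1 and SNAT1 rose, ASCT2 fell and SNAT2 did not pass the test. Slc1a4, which encodes ASCT1, an exchanger of alanine, serine and cysteine (chr11:20302180-20332713, minus strand), read 94, 89 and 82.2 CPM in vehicle libraries and 143, 144 and 143 CPM in TGFβ libraries. The TGFβ libraries were nearly equal and all above the vehicle libraries, with a log2 fold change of 0.70 ± 0.05 (SE, edgeR adjusted p = 6.34e-05). Slc1a5, which encodes ASCT2, an exchanger that also takes glutamine (chr7:16781340-16798274, plus strand), went from 311, 347 and 285 CPM to 196, 236 and 215 CPM. All TGFβ libraries were below all vehicle libraries, with a log2 fold change of -0.54 ± 0.09 (SE, edgeR adjusted p = 0.00229).

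Slc38a1, the sodium coupled carrier SNAT1 that loads glutamine and alanine into cells (chr15:96571418-96642913, minus strand), stood at 34.5, 26.8 and 32.7 CPM in vehicle libraries and 58, 47.7 and 57.7 CPM in TGFβ libraries. The lowest library of each group was its library B, the groups did not overlap, and the change was a log2 fold change of 0.80 ± 0.11 (SE, edgeR adjusted p = 0.000955). Slc38a2, the closely related SNAT2 known for its response to amino acid shortage, stood at 326, 316 and 349 CPM and 334, 326 and 350.4 CPM. Its groups overlapped, with a log2 fold change of 0.03 ± 0.05 (SE, edgeR adjusted p = 0.69), and without vehicle B or TGFβ C the sign was negative (-0.002 and -0.007). Per kilobase the vehicle level of Slc38a2 was 37.3 ± 1.90 CPM per kb and that of Slc38a1 was 1.82 ± 0.234 CPM per kb. The summed level per kilobase of Slc1a5, Slc38a1 and Slc38a2 was 114 ± 5.49 CPM per kb with vehicle and 92.9 ± 4.23 CPM per kb with TGFβ (SD, n = 3). Slc1a5 was 65.7 ± 3.39% of it with vehicle and 55.5 ± 2.88% with TGFβ.

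In the SLC6 family, carriers of glycine, taurine and creatine rose. Slc6a9, the glycine carrier GLYT1 (chr4:117834506-117875198, plus strand), read 74.7, 74.4 and 68.6 CPM in vehicle libraries and 119, 121 and 124 CPM in TGFβ libraries. The difference was large beside the spread within groups, with a log2 fold change of 0.74 ± 0.05 (SE, edgeR adjusted p = 2.62e-05). It overlaps B4galt2 on the opposite strand over 0.89% of its exon bases and Ccdc24, which had 20 counts in all, over 27.8%. Slc6a6, the taurine carrier (chr6:91684053-91759066, plus strand), was 216, 228 and 172 CPM and 355, 322 and 267 CPM. Its groups did not overlap but its spread was wider, with library C lowest in each group and a log2 fold change of 0.61 ± 0.13 (SE, edgeR adjusted p = 0.0073). Slc6a8, the creatine carrier (chrX:73673150-73682502, plus strand), rose from 147 ± 6.65 to 202 ± 16.6 CPM (SD, n = 3), a log2 fold change of 0.46 ± 0.07 (SE, edgeR adjusted p = 0.00123).

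The other 3 SLC6 members tested were scarce and did not pass the test. Slc6a17, a vesicular carrier of neutral amino acids, had 3.89 ± 1.14 CPM in vehicle libraries against 4.71 ± 1.37 CPM after TGFβ (SD, n = 3). Slc6a7, the proline carrier, had 1.39 ± 0.247 CPM in vehicle libraries against 1.02 ± 0.0709 CPM after TGFβ (SD, n = 3), with groups that did not overlap and a log2 fold change of -0.45 ± 0.20 (SE, edgeR adjusted p = 0.109). Slc6a12, the carrier of betaine and GABA, had 0.571 ± 0.176 CPM in vehicle libraries against 0.654 ± 0.197 CPM after TGFβ (SD, n = 3), and its difference changed sign without TGFβ C (-0.08). No SLC6 member fell at the threshold.

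All 3 SLC43 carriers fell, where 20.1% of all genes tested fell. Slc43a2, the facilitative carrier LAT4 of leucine, phenylalanine and methionine (chr11:75531694-75577575, plus strand), read 17.9, 14.8 and 16.3 CPM in vehicle libraries and 6.73, 7.45 and 6.45 CPM in TGFβ libraries. Every TGFβ library had under 8 CPM where no vehicle library had under 14, and the change was a log2 fold change of -1.25 ± 0.10 (SE, edgeR adjusted p = 6.61e-05). Slc43a1, the related carrier LAT3 (chr2:84838850-84863594, plus strand), went from 6.32, 6.64 and 6.91 CPM to 4.42, 4.26 and 4.31 CPM, with tight replicates and a log2 fold change of -0.61 ± 0.09 (SE, edgeR adjusted p = 0.00144). Slc43a3, which moves purine nucleobases and not amino acids (chr2:84936579-84958509, plus strand), stood at 452, 470.0 and 446 CPM and 246, 279.7 and 278 CPM. Here too all TGFβ libraries were below all vehicle libraries, with a log2 fold change of -0.77 ± 0.06 (SE, edgeR adjusted p = 6.78e-05).

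LAT3 and LAT4 moved opposite to LAT1, which has overlapping substrates. Per kilobase, Slc7a5, Slc7a8, Slc43a1 and Slc43a2 summed to 58.3 ± 6.10 CPM per kb with vehicle and 103 ± 3.21 CPM per kb with TGFβ (SD, n = 3). Slc7a5 made up 94.2 ± 0.666% of this with vehicle and 97.8 ± 0.0751% with TGFβ. Slc43a2 was 2.81 ± 0.319% and 0.667 ± 0.0287%, and Slc43a1 2.01 ± 0.304% and 0.74 ± 0.0324%.

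**Figure D3:**
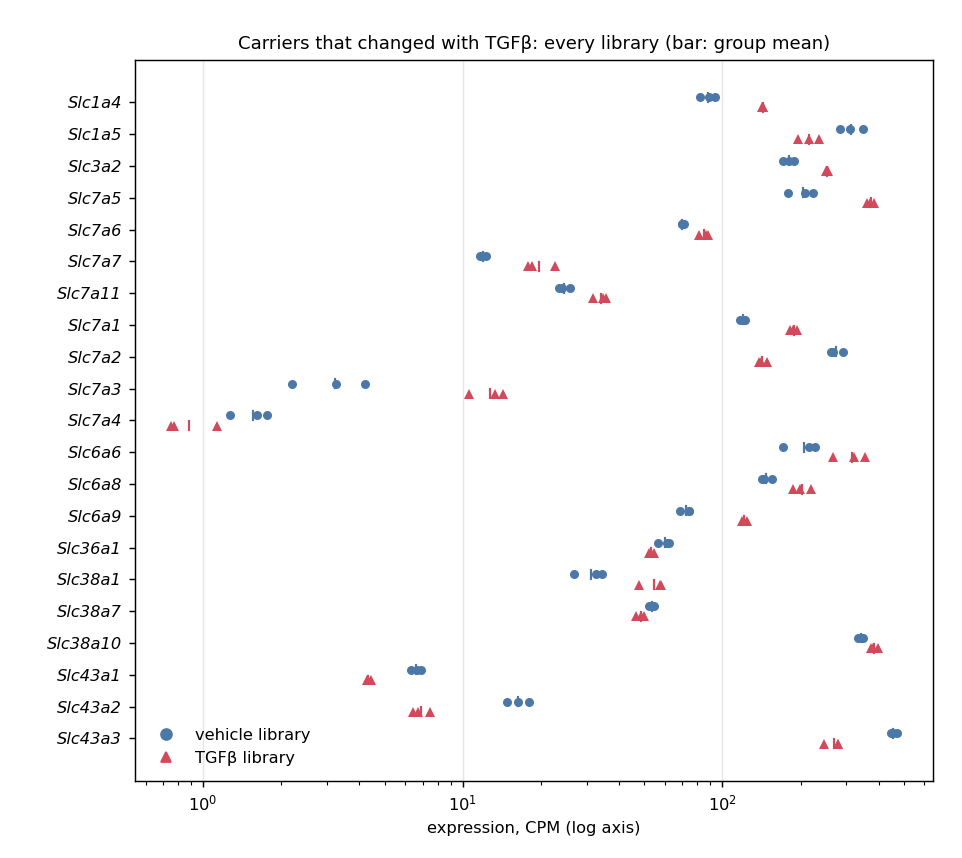
Expression of the 21 carriers that passed the test in every library (x axis, CPM on a log axis), with vehicle libraries as blue circles, TGFβ libraries as red triangles and group means as bars. In each of the 21 the 3 circles and the 3 triangles do not overlap, from Slc7a4 near 1 CPM to Slc43a3, which goes from 456 to 268 CPM.

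Carriers placed in the lysosome or studied less changed by small amounts. Slc36a1, the proton coupled carrier PAT1, fell from 60 ± 2.85 to 53.3 ± 1.12 CPM (SD, n = 3), a log2 fold change of -0.17 ± 0.05 (SE, edgeR adjusted p = 0.0213). Slc38a7, a lysosomal glutamine carrier, fell from 53.4 ± 1.14 to 48.4 ± 1.81 CPM (SD, n = 3), a log2 fold change of -0.14 ± 0.04 (SE, edgeR adjusted p = 0.0323). Slc38a10 rose from 342 ± 7.09 to 383 ± 12.5 CPM (SD, n = 3), a log2 fold change of 0.16 ± 0.04 (SE, edgeR adjusted p = 0.0186).

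Each of these calls depended on the libraries used. Slc36a1 lost its call without vehicle B (adjusted p = 0.0846 from edgeR), vehicle C (0.0636), TGFβ A (0.0677) or TGFβ B (0.0751). Slc38a7 lost it without vehicle A (0.0542), vehicle B (0.085), vehicle C (0.0946) or TGFβ A (0.0995), in DESeq2 (0.0999) and without the filter on low counts (0.0798). Slc38a10 lost it without vehicle A (0.0624), vehicle B (0.0586) or TGFβ B (0.0756). Slc38a9, the lysosomal arginine sensor, had 10.7 ± 0.262 CPM in vehicle libraries against 9.29 ± 0.858 CPM after TGFβ (SD, n = 3); its groups did not overlap, with a log2 fold change of -0.20 ± 0.08 (SE, edgeR adjusted p = 0.101), and with the letter as a block the adjusted p was 0.045. Slc36a4 had groups that did not overlap but differed little, at 47.3 CPM in vehicle libraries against 50.1 CPM after TGFβ, with a log2 fold change of 0.08 ± 0.04 (SE, edgeR adjusted p = 0.158).

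Carriers of glutamate and aspartate did not pass the test without the block. Slc1a3, the carrier EAAT1, had 50.4 ± 6.97 CPM in vehicle libraries against 56.3 ± 8.99 CPM after TGFβ (SD, n = 3), with overlapping groups and a log2 fold change of 0.16 ± 0.13 (SE, edgeR adjusted p = 0.367). Each TGFβ library was above the vehicle library of the same letter (55 against 49.5, 65.9 against 57.7 and 48 against 43.8 CPM), and with the letter as a block the log2 fold change was 0.16 ± 0.04 (SE, edgeR adjusted p = 0.00588). Slc1a6, the carrier EAAT4, had 42.6 ± 3.94 CPM in vehicle libraries against 45.3 ± 8.05 CPM after TGFβ (SD, n = 3), a log2 fold change of 0.09 ± 0.13 (SE, edgeR adjusted p = 0.611). Slc1a2, the carrier EAAT2, was under 1.1 CPM in every library and had a log2 fold change of -1.32 ± 0.49 (SE, edgeR adjusted p = 0.0634); without vehicle C it was -1.59 (adjusted p = 0.0337) and without TGFβ C -1.91 (0.0288), and with the letter as a block -1.31 (0.0244). Slc38a4 (SNAT4) had 3.08 CPM in vehicle libraries against 2.61 CPM after TGFβ and Slc38a6 had 5.8 CPM in vehicle libraries against 5.33 CPM after TGFβ, neither past the threshold. For Slc38a6, 31.3% of all windows of 75 bases, the read length, also occur in other genes, so its counts are uncertain.

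The 17 members below the filter had totals of 1 to 42 counts over all 6 libraries. They included the acidic carriers Slc1a1 and Slc1a7, the heavy chain Slc3a1, the orphan Slc7a14, the GABA carriers Slc6a11 and Slc6a13, the monoamine carriers Slc6a2, Slc6a3 and Slc6a4, the neutral carriers Slc6a15 and Slc6a19, and Slc36a2, Slc38a3, Slc38a5, Slc38a8 and Slc38a11. Several of these are known from brain, kidney or gut. With so few counts, no change was detectable at this depth.

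Compared per kilobase of merged exons, a few carriers held the highest levels in both groups. With vehicle the order was Slc43a3 (102 ± 2.77 CPM per kb, SD, n = 3), Slc1a5 (75.3 ± 7.48), Slc7a5 (54.9 ± 6.06), Slc38a10 (53.3 ± 1.1) and Slc3a2 (51.1 ± 2.65). The last 3 of these lay within each other's spread. With TGFβ the order of levels was Slc7a5 (100.3 ± 3.18), Slc3a2 (71.7 ± 0.632), Slc43a3 (60.1 ± 4.26), Slc38a10 (59.7 ± 1.95) and Slc1a5 (51.7 ± 4.77), and Slc43a3 and Slc38a10 were not apart beyond their spread. Slc7a5 and Slc3a2, the chains of a single exchanger, ranked first and second with TGFβ, while Slc7a2 went from rank 7 to rank 14. By the longest transcript, and by the mean of all 6 libraries together, Slc7a2 had rank 11.

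**Figure D4:**
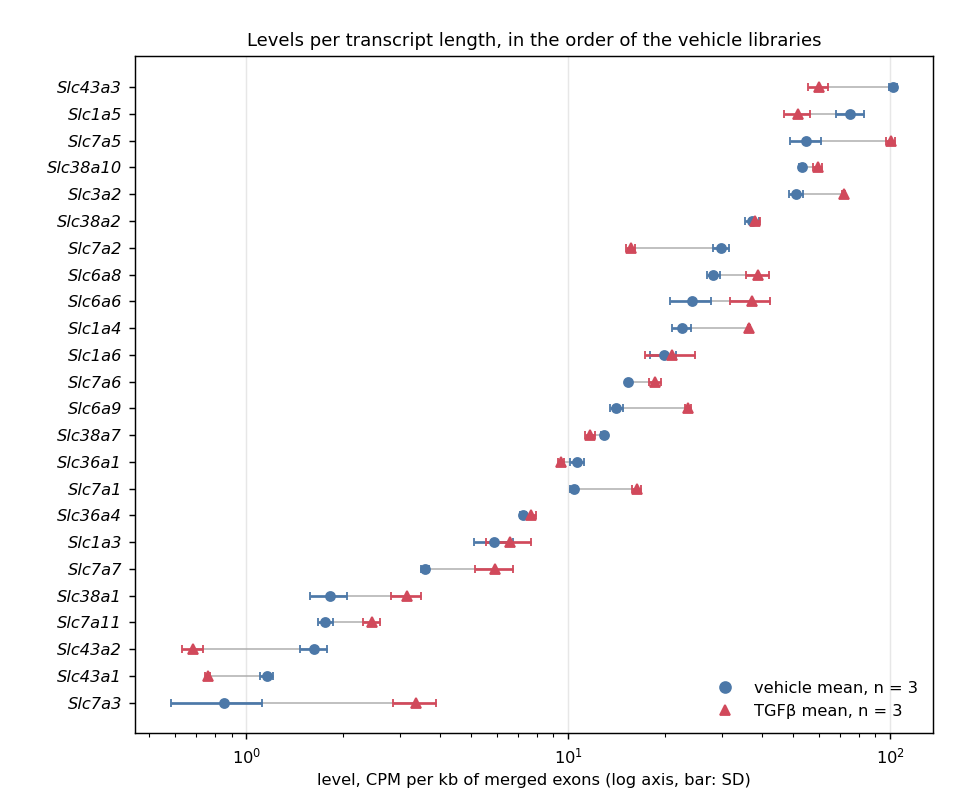
Mean levels per kilobase of merged exons (x axis, CPM per kb on a log axis, bars are SD, n = 3) of the 24 most abundant carriers with vehicle (blue circles) and TGFβ (red triangles), in the vehicle order. Slc7a5 moves from 54.9 to 100.3 CPM per kb and Slc43a3 from 102 to 60.1.

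Genes around the carriers were read from lists of known pathways. In the amino acid response through ATF4, which raises carriers and synthesis enzymes when uncharged tRNA accumulates or the ER is stressed, 9 of 18 genes rose and 1 fell, with a median log2 fold change of 0.14. This was 55.6% of the list, against 40.7% of all genes tested, of which 20.5% rose and 20.1% fell. With the letter as a block, 9 rose and 4 fell, where 26% of all genes rose and 26.3% fell. Nupr1, a stress response cofactor, rose most, a log2 fold change of 1.22 ± 0.11 (SE, edgeR adjusted p = 0.000134). Chac1, which degrades glutathione, rose with a log2 fold change of 0.79 ± 0.12 (SE, edgeR adjusted p = 0.00166) and Stc2, a secreted stress protein, with a log2 fold change of 0.73 ± 0.11 (SE, edgeR adjusted p = 0.00186). Atf4 itself rose with a log2 fold change of 0.23 ± 0.05 (SE, edgeR adjusted p = 0.00558). Cebpb, a partner of ATF4, fell, a log2 fold change of -1.06 ± 0.07 (SE, edgeR adjusted p = 2.6e-05). The stress genes Ddit3, Atf3, Ppp1r15a and Sesn2 had log2 fold changes from -0.13 to 0.08 and did not pass in the fit without the block. In that fit the only negative values in the list were those of Cebpb, Ddit3, Atf5 and Vldlr. With the block 4 genes fell, and the number that rose stayed at 9. Of the 16 genes of this list with a promoter, 6 held TGATGNAA (Asns, Atf3, Chac1, Nupr1, Trib3 and Vldlr). Over all genes with a promoter the share was 4.51%. Atf3 and Vldlr did not pass in the fit without the block. The list was made up of known genes of this response, so the count is not a result about TGFβ.

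Cytosolic aminoacyl-tRNA synthetases, which charge tRNAs with the amino acids that the carriers bring in, rose with 1 exception. Of 20 tested, 19 rose and none fell (95%, where 20.5% of all genes rose), with a median log2 fold change of 0.31. The largest was Lars, the leucine enzyme, with a log2 fold change of 0.61 ± 0.04 (SE, edgeR adjusted p = 3.69e-05), followed by Gars (0.54) and Rars (0.54), the glycine and arginine enzymes. Qars, the glutamine enzyme, had 92.4 CPM in vehicle libraries against 94.1 CPM after TGFβ and did not pass.

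Genes of lysosomal amino acid sensing by mTORC1, the kinase complex that leucine and arginine activate, did not stand out by number: 4 of 32 rose and 7 fell, with a median of -0.03, and the share called, 34.4%, was below the 40.7% of all genes. Rheb, the GTPase that switches mTORC1 on, rose with a log2 fold change of 0.55 ± 0.05 (SE, edgeR adjusted p = 9.71e-05), and Sec13 (0.49) and Rraga (0.23) rose too. Rragd, a Rag GTPase, fell most, a log2 fold change of -1.21 ± 0.10 (SE, edgeR adjusted p = 0.000105). Sesn1, a leucine sensor, fell with a log2 fold change of -0.58 and Flcn, a Rag regulator, with -0.33. Of the 28 genes of this list with a promoter, 6 held CACGTG, where 8.09% of all genes with a promoter did. They included 2 of the 7 with a promoter that fell (Fnip1 and Rragc) and also Rheb, which rose.

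Among enzymes of glutamine, glutamate, asparagine and alanine, 4 of 14 tested rose and 2 fell, with a median of -0.02; the share called, 42.9%, was near the 40.7% of all genes. Gpt2 (0.69) and Got1 (0.68), transaminases, and Gfpt1 (0.46), which uses glutamine for hexosamines, rose. Glul, glutamine synthetase, fell with a log2 fold change of -1.03 ± 0.05 (SE, edgeR adjusted p = 9.02e-06), and Aspg, an asparaginase, fell from a low level (-1.07).

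In glutathione synthesis from cystine and glutamate, 4 of 10 tested genes rose and 4 fell (80%, against 40.7% of all genes), with a median of -0.04. Cth, which releases cysteine from cystathionine, rose with a log2 fold change of 1.55 ± 0.27 (SE, edgeR adjusted p = 0.00282). Cbs, the enzyme that makes cystathionine, fell with a log2 fold change of -1.82 ± 0.20 (SE, edgeR adjusted p = 0.000317). Cbs was scarce in both groups, with 1.86 CPM in vehicle libraries against 0.524 CPM after TGFβ. Gss, glutathione synthetase, rose (0.57). Genes of glutathione breakdown went both ways: Chac2 rose (0.29), while Ggt5 (-1.27) and Oplah (-1.04) fell. Without vehicle B or without TGFβ A only 5 of the 10 were called, nearer the share of all genes. Chac2 lost its call in DESeq2 (adjusted p = 0.113) and in edgeR without vehicle B (0.0924), vehicle C (0.0861), TGFβ A (0.0542), TGFβ B (0.0692) or TGFβ C (0.0959).

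Of amino acid and peptide carriers outside these families, none of 7 tested rose and 3 fell, with a median of -0.24; the share called, 42.9%, was near the 40.7% of all genes. Slc16a10, the carrier TAT1 of aromatic amino acids, fell with a log2 fold change of -0.85 ± 0.13 (SE, edgeR adjusted p = 0.00145), and the lysosomal peptide and histidine carrier Slc15a4 with a log2 fold change of -0.35 ± 0.04 (SE, edgeR adjusted p = 0.000582). Mfsd12, a lysosomal cysteine importer, fell with -0.24; it lost its call in DESeq2 (adjusted p = 0.0538) and in edgeR without vehicle B (0.0803), vehicle C (0.0744), TGFβ A (0.0804) or TGFβ C (0.0582). Among 4 tested partners and regulators, Nedd4l, a ubiquitin ligase that removes several carriers from the membrane, fell with a log2 fold change of -0.85 ± 0.04 (SE, edgeR adjusted p = 8.73e-06), and Arl6ip5, which restrains EAAT3, fell with -0.27. Sgk1, a kinase that raises the activity of many carriers and opposes Nedd4l, rose with a log2 fold change of 0.52 ± 0.11 (SE, edgeR adjusted p = 0.00722). Cd44, a partner of the cystine carrier, had 122 CPM in vehicle libraries against 152 CPM after TGFβ and did not pass without the block. Of the 4 partners and regulators, 1 rose and 2 fell without the block (75%, against 40.7% of all genes). With the letter as a block, 2 rose and 2 fell, where 26% of all genes rose and 26.3% fell.

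**Figure D5:**
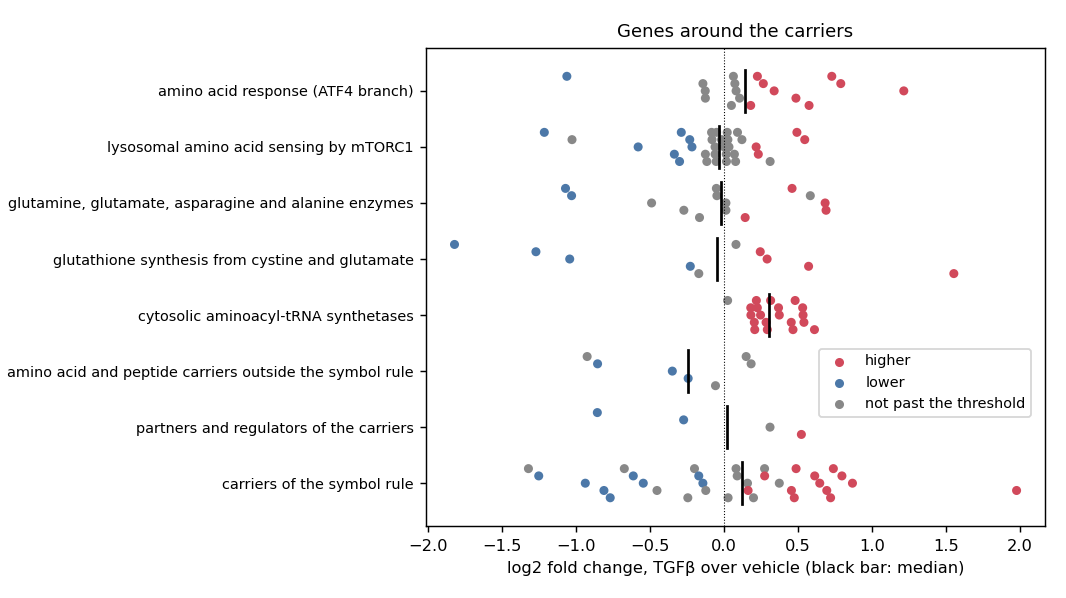
Log2 fold changes (x axis, TGFβ over vehicle) of every tested gene of the pathway lists and of the carriers (rows on the y axis), with black bars at each median. Red points rose, blue points fell and grey points did not pass; 19 of 20 aminoacyl-tRNA synthetases are red with a median of 0.31, and the carriers spread to both sides around 0.13.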

How the data were processed

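Total RNA was made into stranded poly(A) libraries (single-end reads of 75 bases). The values used are whole-number counts per gene that the authors deposited, made on mm10 and analysed by them with DESeq2. Aligner, counter, annotation and strand setting are not given in the sources used here. The authors' own fold changes and p-values in the same table were not used. The labels name cardiac fibroblasts while the study's text also names mouse embryonic fibroblasts, and the labels are followed. Count columns name only the group. The study's methods call the 3 libraries of a group biological replicates, without saying whether they came from separate animals. The labels give 16 h in low serum before treatment and the methods 24 h. Replicates differed beyond counting noise (chi-square per gene 7.95 to 27.1).

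Genes were filtered with filterByExpr, scaled by TMM (factors 0.967 to 1.025) and tested with edgeR 4.0.16 (glmQLFit, R 4.3.3), with Benjamini-Hochberg adjustment over all 14334 genes that passed and a threshold of 0.05. The biological coefficient of variation was 7.97%. SE is the size of the log2 fold change over the square root of F. CPM used the same library sizes, and levels per kilobase used merged exons of GENCODE M21. Alternatives were DESeq2 size factors, upper quartile factors, DESeq2 1.42.0, limma-voom 3.58.1, other filters, stricter thresholds, leaving out each library and, added after the data were seen, the column position within a group as a block. The code was tested on simulated data.

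Every library's value is given for called members that averaged 5 CPM or more and changed by 0.5 or more on the log2 scale. At most 3 rises and 3 falls were named from each list, and a few further list genes were added after their values were seen. Members, lists and groupings were chosen with earlier results of these data known. Single values of a few genes are not reported here.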

Additional observations from a re-analysis of the deposited data

How the results depend on the processing

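No paired analysis was possible because the count columns carry no replicate numbers. With the column position as a block, added after the data were seen because same-position libraries deviated together, 25 members (15 higher, 10 lower) and 7497 genes (52.3%) were called; the 21 members that changed stayed called in the same direction, and Slc1a2, Slc1a3, Slc7a8 and Slc38a9 were added. Of the 21 members that changed, 17 kept their direction and their side of the 0.05 threshold under all 12 alternatives of scaling, tool, filter and libraries left out, and the exceptions were Slc38a10, Slc36a1, Slc7a4 and Slc38a7. Leaving out 1 library gave 17 to 21 members called and 4489 to 5481 genes called over all genes. Requiring a log2 change of at least 1 left 2 members and 971 genes, and an adjusted p of 0.01 left 3595 genes. Other scalings moved the median of all genes by -0.00339 and -0.021. Values near 0 changed sign without 1 library: Slc6a12 ranged from -0.077 (without TGFβ C) to 0.473, and Slc38a2 from -0.007 (without TGFβ C) to 0.07, with -0.002 without vehicle B, and the cause was not tested. With the block, 9 genes of the amino acid response list rose and 4 fell, and 6 of lysosomal sensing rose and 9 fell. In the list of glutamine and related enzymes 4 rose and 3 fell, and in glutathione synthesis 4 rose and 5 fell. Of carriers outside these families none rose and 4 fell, and of partners and regulators 2 rose and 2 fell. Synthetases stayed at 19 higher and none lower. By this fit, 26% of all genes rose and 26.3% fell. Shares per kilobase depend on the length used. The 17 members below the filter are limited by depth.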
